A study of Homo sapiens with 4 samples.

Results

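The annexins are a family of proteins that bind phospholipid membranes when calcium is present. The 10 members described here are ANXA1, ANXA2, ANXA3, ANXA4, ANXA5, ANXA6, ANXA7, ANXA8, ANXA10 and ANXA11, chosen by gene name from the 58174 genes of the deposited table. Transcripts were sequenced in SW1990 and PANC-1, both established human pancreatic cancer cell lines, either unirradiated or irradiated with 10 Gy of X-rays. Each line and treatment gave 1 library, so there were 4 libraries and no replicate of any group. SW1990 cells were grown in 1640 medium and PANC-1 cells in DMEM, both with 10% FBS, and the passage given for every library was 14 to 16. The time between radiation and RNA collection was not given in the sources used here. The lines differ in medium as well as in origin, and these cannot be told apart in a comparison of the lines.

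Annexins share a core of repeated domains that holds the calcium and lipid sites, and each has its own N-terminal tail. The tails of annexin A1 and annexin A2 bind S100 proteins, which are small calcium sensors, and these complexes bring membranes together. Annexins are known for membrane repair, for traffic through endosomes and secretory vesicles, and as frequent constituents of extracellular vesicles. Annexin A5 binds phosphatidylserine, the lipid that dying cells turn to their outer face. Annexin A1 limits inflammation through formyl peptide receptors, and annexin A2 with S100A10 assembles the plasminogen system on the cell surface.

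Gene counts summed to 17851815 in unirradiated SW1990, 18305682 in irradiated SW1990, 23323266 in unirradiated PANC-1 and 20026595 in irradiated PANC-1 cells. The floor of 3 counts came to between 0.129 and 0.168 CPM, the count scaled to the library total. The keratin gene KRT8 was high in every library, at an FPKM of 1350, 1890, 786 and 851 in that order of the libraries. FPKM is the expression scaled to transcript length and library size. The epithelial adhesion gene CDH1 had 9906 and 14345 counts in the SW1990 libraries and 59 and 65 in the PANC-1 libraries. VIM, which encodes the mesenchymal filament protein vimentin, had 17 and 0 counts in SW1990 and 82406 and 75166 in PANC-1. The annexin differences between the lines described here therefore stood beside this epithelial and mesenchymal difference, whose part in them was not tested. Of the markers of other cells, INS, GCG, SST, CPA1, CD3E and DCN were at 0 counts in all 4 libraries. Other markers of such cells had counts. The fibroblast marker COL1A1, a collagen gene, had 103, 165, 965 and 1315 counts in the order above and was higher in PANC-1 (log2 difference -3.01, edgeR adjusted p = 0.000517), while LUM had at most 2. The endothelial marker VWF had 14, 50, 2 and 4 counts, and the acinar marker PRSS1 had 12 and 8 in SW1990 and 0 in PANC-1. The part of these markers in the annexin values was not tested. The leukocyte markers PTPRC, CD3E and CD14 summed to at most 58 counts in a library, nearly all of them CD14.

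ANXA1 lies on chromosome 9 (GRCh38, chr9:73151757-73170393), ANXA2 at chr15:60347134-60402883, ANXA4 at chr2:69644425-69827100 and ANXA6 at chr5:151100712-151157882. Chromosome 4 carries ANXA3 (chr4:78551519-78610451), ANXA5 (chr4:121667955-121697113) and ANXA10 (chr4:168092515-168187690). Chromosome 10 carries ANXA7 (chr10:73375101-73414076), ANXA8 (chr10:47460162-47484158) and ANXA11 (chr10:80150889-80205572). In GENCODE release 29 all 10 are protein coding. Their principal coding sequences span between 320 codons, in ANXA5, and 673 codons, in ANXA6, which carries a longer core than the others. The N-terminal tails named above are where the family members differ most, and the first 45 coding bases of ANXA1 and ANXA2 are shown for that reason, with the start codon in capitals.
ANXA1: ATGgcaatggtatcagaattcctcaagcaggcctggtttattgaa
ANXA2: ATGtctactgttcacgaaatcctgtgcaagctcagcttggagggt

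Near-identical copies limit what the counts of ANXA8 and ANXA2 can show. The coding sequence of ANXA8 differed from that of ANXA8L1, its neighbour on chromosome 10, at 5 of 981 bases, and 70.4% of its coding windows of 100 bases were also found in ANXA8L1. The stretch below covers coding bases 471 to 530 of ANXA8, with the differing bases in capitals.
ANXA8: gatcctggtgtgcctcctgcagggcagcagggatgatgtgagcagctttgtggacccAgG
ANXA8L1: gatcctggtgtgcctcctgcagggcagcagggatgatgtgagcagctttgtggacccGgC
ANXA2 differed from its processed pseudogene ANXA2P2 at 16 of 1017 aligned bases, and 31.3% of its coding windows of 100 bases were shared. Coding bases 161 to 220 of ANXA2 hold 5 of these differences.
ANXA2: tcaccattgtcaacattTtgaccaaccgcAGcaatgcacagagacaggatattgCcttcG
ANXA2P2: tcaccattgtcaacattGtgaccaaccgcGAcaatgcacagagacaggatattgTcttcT
ANXA8 had 16, 31, 30 and 41 counts in unirradiated SW1990, irradiated SW1990, unirradiated PANC-1 and irradiated PANC-1 cells, and ANXA8L1 had 43, 31, 151 and 190. How many of these reads belong to which copy is uncertain. ANXA2P2 had 56, 66, 141 and 126 counts against 13191, 13425, 29286 and 22971 for ANXA2, so adding them would move the ANXA2 level little. How reads that match both copies were counted is not known, so a loss of such reads from ANXA2 could not be assessed. ANXA2P1 and ANXA2P3 were at 0 counts in every library.

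ANXA2 was the most abundant annexin in every library, and 8 of the 10 members reached an FPKM of 1 in at least 1 library. Its FPKM was 647 in unirradiated SW1990, 486 in irradiated SW1990, 817 in unirradiated PANC-1 and 773 in irradiated PANC-1 cells, ranks 54, 67, 33 and 34 among all genes. It made up 65.3%, 55.0%, 60.6% and 59.8% of the summed annexin FPKM. The rest of the order was not the same in both lines. In SW1990, ANXA3 came next, at an FPKM of 104 without and 132 after radiation. In PANC-1, ANXA5 came next, at 232 and 246, followed by ANXA1 at 145 and 104. ANXA3 was next to last among the detected members of PANC-1, at 2.34 and 0.904. Some neighbours changed place between the libraries of a line and so were not ordered beyond that spread. In SW1990 ANXA5 and ANXA11 did so, at 66.2 and 60.5 without and 72.6 and 73.1 after radiation. ANXA1 also passed ANXA7 and ANXA6 there, from 22.9 against 38.5 and 29.6 to 41.5 against 32.8 and 30.5. In PANC-1 ANXA4 and ANXA11 did so, at 41.9 and 42.7 without and 49.5 and 45.2 after radiation. ANXA8 stayed under an FPKM of 1 in all 4 libraries, between 0.384 and 0.785. ANXA10, best known from gastric epithelium, had 0 counts in every library, which allows up to 3 counts in each. Of the family members outside the 10, ANXA13 had 4 counts in irradiated SW1990 cells and 0 elsewhere.

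**Figure D1:**
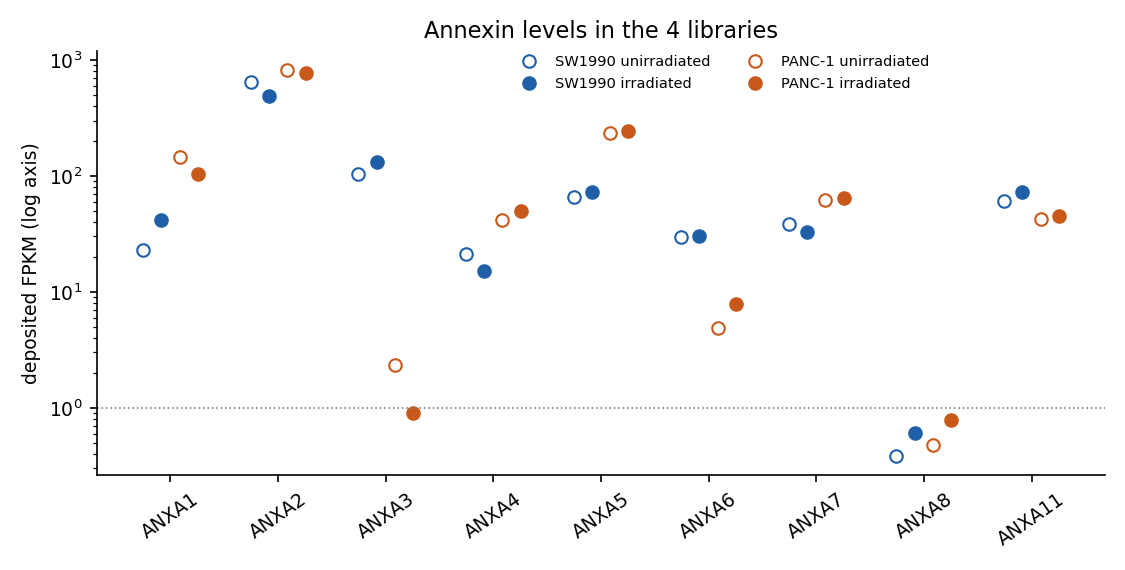
Deposited FPKM of 9 annexins (log axis) in the 4 libraries, with open points for unirradiated and filled points for irradiated cells, blue for SW1990 and orange for PANC-1; the dotted line marks an FPKM of 1. ANXA2 is highest in every library, ANXA3 is at 104 and 132 in SW1990 and at 2.34 and 0.904 in PANC-1, and ANXA10, listed at 0, is not drawn.

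The lines differed in most annexins. In a fit of all 4 libraries (edgeR's quasi-likelihood test with radiation as a covariate, Benjamini-Hochberg adjusted over 18244 genes), 8 of the 9 members tested passed an adjusted p of 0.05. ANXA3, ANXA6 and ANXA11 were higher in SW1990, and ANXA1, ANXA2, ANXA4, ANXA5 and ANXA7 were higher in PANC-1. Of all genes tested, 44.4% passed, 21.6% higher and 22.8% lower in SW1990. The median absolute log2 difference was 1.32 over the 9 members tested and 0.77 over all genes tested. The 2 libraries of a line were an unirradiated and an irradiated one, and the fit had 1 residual degree of freedom, so its p-values measure the spread between such libraries and not between cultures. In such bulk libraries, fewer cells with a transcript and less of it per cell cannot be told apart.

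ANXA3, an annexin abundant in neutrophils, had the largest difference of the family. It had 3151 counts in unirradiated and 3399 in irradiated SW1990 cells, against 75 and 20 in PANC-1. The libraries of the lines were far apart, and the fitted level was 81.2-fold higher in SW1990 (log2 6.34, edgeR adjusted p = 0.000861). The log2 difference was 5.55 between the unirradiated and 7.46 between the irradiated libraries. ANXA6, which is linked to endosomes and cholesterol transport, had 1342 and 1329 counts in SW1990 and 342 and 386 in PANC-1. Both SW1990 libraries were above both PANC-1 libraries, by 3.95-fold in the fit (edgeR adjusted p = 0.00129). ANXA11, whose tail binds the calcium sensor PDCD6 and which tethers RNA granules to lysosomes, had 3408 and 4022 counts in SW1990 and 2913 and 2642 in PANC-1. Its difference was the smallest that passed, at 1.43-fold (edgeR adjusted p = 0.0416), and the adjusted p reached 0.0795 when every gene with a count was tested.

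The members higher in PANC-1 were led by ANXA1. It had 837 counts in unirradiated and 1421 in irradiated SW1990 cells, against 6668 and 4449 in PANC-1. Its fitted level was 4.64-fold higher in PANC-1 (edgeR adjusted p = 0.00516), and the log2 difference of SW1990 minus PANC-1 was -2.84 without and -1.60 after radiation. ANXA5 had 1896 and 2090 counts in SW1990 and 8708 and 7948 in PANC-1, a level 3.89-fold higher in PANC-1 (edgeR adjusted p = 0.00077). For ANXA5 the unirradiated and the irradiated pair gave nearly the same log2 difference, -2.04 and -1.88. ANXA4, known from epithelial membranes and ion channel control, had 651, 801, 1988 and 1887 counts and was 2.50-fold higher in PANC-1 (edgeR adjusted p = 0.00308). ANXA7, once called synexin for its part in fusing secretory granules, had 1571, 1703, 3768 and 3735 counts and was 2.14-fold higher in PANC-1 (edgeR adjusted p = 0.00359). ANXA2 was 1.81-fold higher in PANC-1 (edgeR adjusted p = 0.00948). With limma on the log2 scale of FPKM its difference was -0.50 and its adjusted p 0.0584. ANXA8 did not pass, at a log2 difference of -0.54 (edgeR adjusted p = 0.41), with the doubt about reads shared with ANXA8L1 given above. Summed, the 2 copies had 59 and 62 counts in SW1990 and 181 and 231 in PANC-1, a difference that was not tested.

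**Figure D2:**
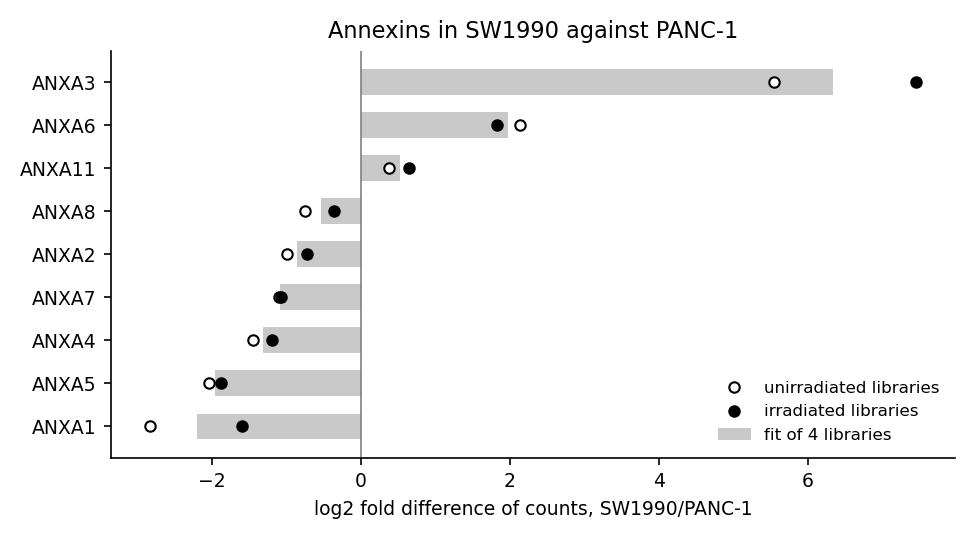
Log2 fold difference of counts, SW1990 over PANC-1, for 9 annexins; grey bars give the fit of 4 libraries, open points the unirradiated and filled points the irradiated pair. Both points lie on the same side of 0 as the bar for every gene drawn, and ANXA3 stands apart at 6.34.

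Radiation was then compared within each line, with 1 library a side. There is no replicate check and no test, and the intervals given are 95% Clopper-Pearson intervals of the counts, which cover counting error only. A gene was counted as past the limit at a fold above 2, among genes that reached an FPKM of 1 in a library of the line. In SW1990, 0 of 8 members passed the limit, where 9.53% of 15731 genes did. In PANC-1, 1 of 8 members did, where 9.12% of 15159 genes did. Both counts are near what the background would give. The median log2 change was 0.15 over the 8 members and 0.02 over all genes in SW1990, and -0.01 and -0.02 in PANC-1.

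Among the 8 members that reached an FPKM of 1, ANXA1 had the largest change in SW1990, the line where it was low. Its CPM, scaled by TMM, was 43.6 without and 75.0 after radiation, 1.72-fold higher (log2 0.78, 0.66 to 0.91), and its FPKM was 22.9 and 41.5. In PANC-1 its CPM was 311 without and 227 after radiation, 0.73-fold (log2 -0.45, -0.51 to -0.40), and its FPKM 145 and 104. The values thus lay in opposite directions in the lines, by counts and by FPKM alike, and the irradiated libraries were closer to each other than the unirradiated ones. Among the same 8, ANXA3 had the largest change in PANC-1, the line where it was scarce. There it had 75 counts without and 20 after radiation, 0.292-fold (log2 -1.78, -2.57 to -1.05). Its FPKM was 2.34 in the unirradiated and 0.904 in the irradiated cells, so it was near the limit of 1 used for the comparison. In SW1990, where ANXA3 was abundant, its log2 change was 0.13 (0.06 to 0.20).

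ANXA2 had a CPM of 687 and 709 in SW1990 and of 1370 and 1170 in PANC-1. Its log2 change was 0.05 (0.01 to 0.08) in SW1990 and -0.22 (-0.25 to -0.20) in PANC-1. The deposited FPKM gave -0.41 and -0.08, so the sign in SW1990 was not the same in both units. ANXA5 was nearly level in both lines, with log2 changes of 0.16 (0.07 to 0.25) in SW1990 and 0.00 (-0.05 to 0.04) in PANC-1. ANXA6 was level in SW1990 (log2 0.01, -0.10 to 0.12) and slightly higher after radiation in PANC-1 (log2 0.30, 0.09 to 0.52). By FPKM the PANC-1 change of ANXA6 was larger, from 4.84 to 7.83 or log2 0.69. ANXA11 had log2 changes of 0.26 (0.19 to 0.33) and -0.01 (-0.09 to 0.07). ANXA7 had 0.14 (0.04 to 0.24) and 0.12 (0.05 to 0.18).

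ANXA4 showed how far the unit mattered. Its counts gave a log2 change of 0.32 (0.17 to 0.47) in SW1990, while its FPKM went from 21.3 to 15.0, a log2 change of -0.51. The unscaled CPM behind 1 FPKM unit was 1.71 in unirradiated and 2.92 in irradiated SW1990 cells, a ratio of 1.71. Only 3.86% of 13598 genes of SW1990 had a ratio beyond 1.5-fold in either direction. What parted the units was not tested. In PANC-1 the same ANXA4 values were 2.04 and 1.90. ANXA2, at 1.14 and 1.51, and ANXA7, at 2.28 and 2.84, moved the same way in SW1990 by smaller ratios of 1.32 and 1.24. By counts all 8 members lay above 0 in SW1990, as did 8395 of 15731 genes, and by FPKM 5 members did, with ANXA2, ANXA4 and ANXA7 below. Scaling by total counts left 6 above 0, with ANXA2 and ANXA6 just below. In PANC-1, 3 members lay above 0 and 5 below by counts. Of these, ANXA5 was only just below, at 0.999-fold, a log2 change that rounds to 0.00. By FPKM and with scaling by total counts, 5 members lay above 0 in PANC-1.

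**Figure D3:**
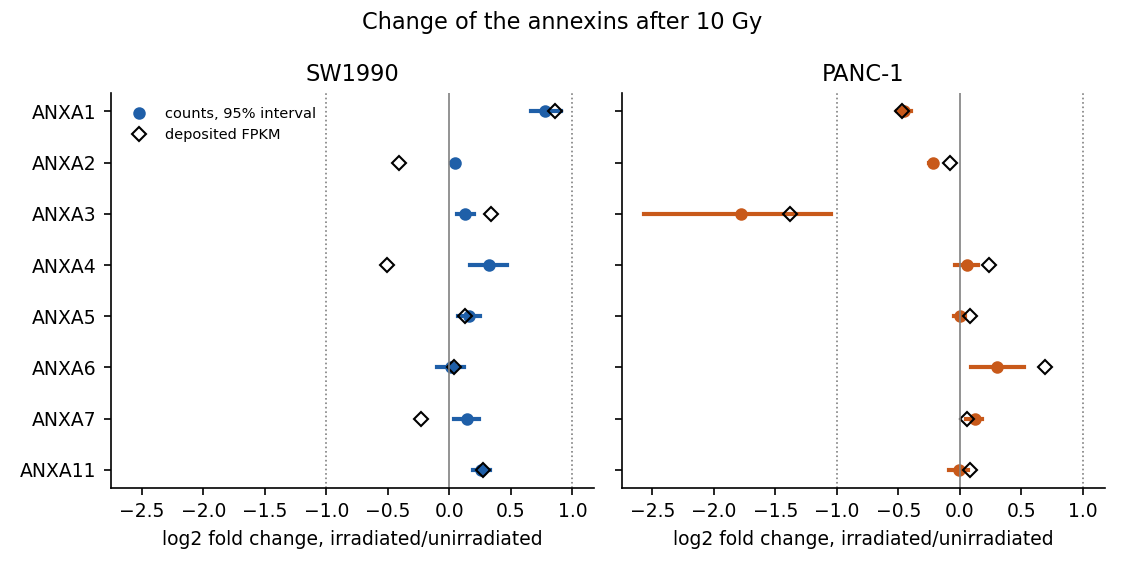
Log2 fold change after 10 Gy in SW1990 (left) and PANC-1 (right) for 8 annexins; filled points with 95% intervals are TMM-scaled counts, diamonds are deposited FPKM, and dotted lines mark the 2-fold limit. ANXA3 in PANC-1 lies beyond the limit by both units, ANXA1 lies on opposite sides of 0 in the lines, and counts and FPKM part for ANXA2, ANXA4 and ANXA7 in SW1990.

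The change in SW1990 minus the change in PANC-1 was 1.24 on the log2 scale for ANXA1 (1.10 to 1.37) and 1.91 for ANXA3 (1.19 to 2.62). For the other 6 members that reached an FPKM of 1 it was between -0.30, in ANXA6, and 0.27, in ANXA2 and ANXA11. Of 13228 genes that reached an FPKM of 1 in both lines, 11.9% differed by more than 1, and 2 of 8 members did. The difference was not tested, since a term for it would leave no residual degree of freedom. Over both lines together, 0 of the 9 members tested passed for radiation, with edgeR adjusted p-values between 0.944 and 0.98. Of all 18244 genes 0.0% passed, while 870 had an unadjusted p under 0.05 and DESeq2's Wald test passed 312 genes, 0 of them members. None of the 9 members had an unadjusted edgeR p under 0.05.

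**Figure D4:**
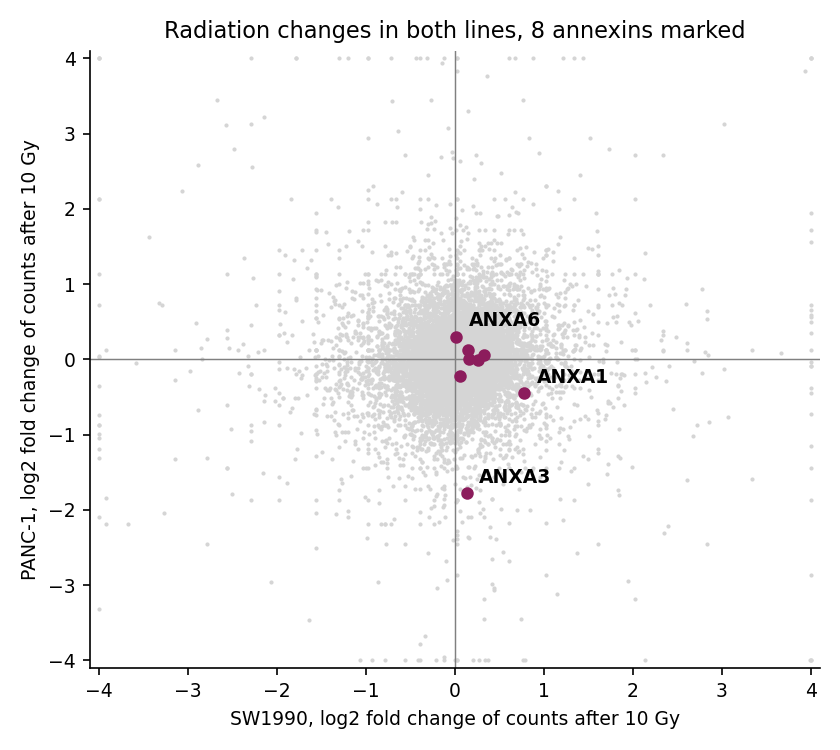
Log2 fold change of counts after 10 Gy in SW1990 (horizontal) and PANC-1 (vertical) for the 13228 genes that reached an FPKM of 1 in both lines (grey, values beyond 4 drawn at 4) and 8 annexins (purple). ANXA1 lies to the lower right at 0.78 and -0.45, ANXA3 lies low at 0.13 and -1.78, and the other members lie within the dense centre.

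The S100 partners were the genes next examined. S100A11 binds the tail of annexin A1, and its counts were 1255 in unirradiated SW1990, 2179 in irradiated SW1990, 7205 in unirradiated PANC-1 and 6267 in irradiated PANC-1 cells. Like ANXA1 it was higher in PANC-1 (log2 difference -1.92, edgeR adjusted p = 0.00359) and had the largest change of its list after radiation in SW1990, at log2 0.82 (0.72 to 0.92). In PANC-1 its log2 change was -0.07 (-0.12 to -0.02), against -0.45 for ANXA1. S100A10, the partner of annexin A2, had an FPKM of 268 and 287 in SW1990 and of 180 and 200 in PANC-1. It was higher in SW1990 (log2 0.50, edgeR adjusted p = 0.0481) where ANXA2 was lower. S100A6, a partner of several annexins, and S100A4, which binds annexin A2, were both higher in PANC-1, with log2 differences of -2.31 (edgeR adjusted p = 0.000878) and -2.97 (edgeR adjusted p = 0.00261). All 4 partners tested passed between the lines, 1 higher and 3 lower in SW1990, where 21.6% of all genes were higher and 22.8% lower. Their median log2 difference was -2.12, against -0.01 over all genes. By counts S100A4 moved the other way from S100A11 after radiation, at log2 -0.53 (-0.96 to -0.11) in SW1990 and 0.64 (0.49 to 0.78) in PANC-1. The latter was the largest change of the list in PANC-1. By FPKM the S100A11 change in PANC-1 was log2 0.01, so its direction there depended on the unit. The same held for S100A10 in PANC-1, at log2 -0.28 (-0.34 to -0.23) by counts and 0.15 by FPKM. None passed the 2-fold limit after radiation. S100A12 and S100B were at 0 counts in every library, and S100A1 had 9 counts in unirradiated PANC-1 cells and 0 elsewhere.

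**Figure D5:**
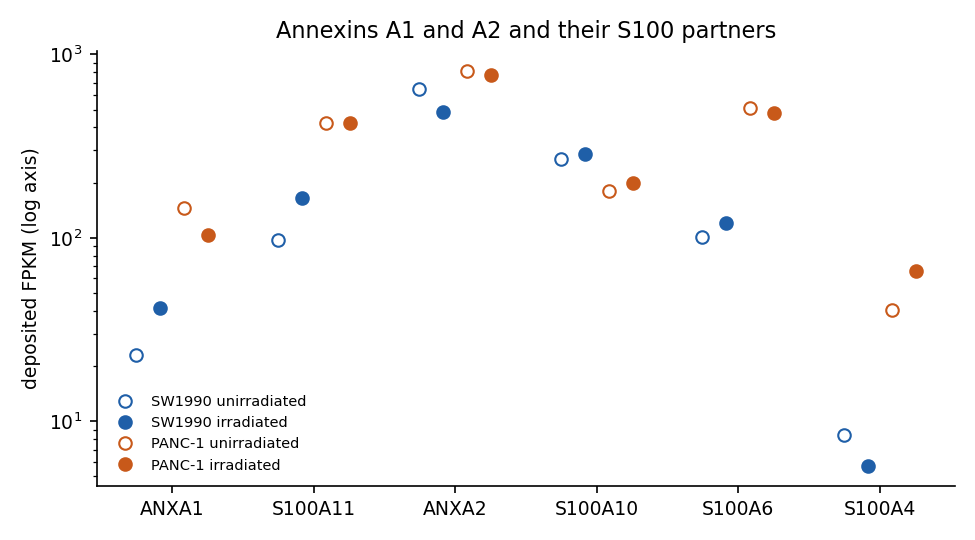
Deposited FPKM (log axis) of annexins A1 and A2 and of 4 S100 genes in the 4 libraries, with open points for unirradiated and filled points for irradiated cells, blue for SW1990 and orange for PANC-1. ANXA1, S100A11, S100A6 and S100A4 are higher in PANC-1, while S100A10 is higher in SW1990, at 268 and 287 against 180 and 200.

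Annexin A2 and S100A10 help to place the plasminogen system on the cell surface. PLAU, the urokinase activator, had 435 and 546 counts in SW1990 and 23372 and 20731 in PANC-1 (log2 -5.39, edgeR adjusted p = 0.000315). The urokinase receptor gene PLAUR and the inhibitor gene SERPINE2 were higher in SW1990, by 1.11 (edgeR adjusted p = 0.0188) and 4.21 (edgeR adjusted p = 0.000832) on the log2 scale. PLG, which encodes plasminogen itself, was at 0 counts in all libraries. PLAT, the tissue-type activator, was past the 2-fold limit after radiation in SW1990, at 41 and 138 counts (log2 1.77, 1.26 to 2.31). It is named for that value. In PANC-1 it had 44 and 36 counts (log2 -0.16, -0.84 to 0.51), at an FPKM of 0.732 and 0.64.

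Genes that move phosphatidylserine, the ligand of annexin A5, followed. ANO6, a scramblase that exposes this lipid when calcium rises, had 2 and 8 counts in SW1990 and 6406 and 4830 in PANC-1 (edgeR adjusted p = 0.000315). ATP8A1, a flippase that returns the lipid to the inner face, had 652 and 563 counts in SW1990 and 2 and 4 in PANC-1 (edgeR adjusted p = 0.000383). TMEM30B, a subunit of such flippases, had 647 and 654 counts in SW1990 and 0 in both PANC-1 libraries (edgeR adjusted p = 0.000545), while its relative TMEM30A was expressed in both lines, at an FPKM of 17.2, 16.7, 23.3 and 26.3. Of 13 genes tested, 4 were higher and 3 lower in SW1990, where 21.6% of all genes were higher and 22.8% lower, and their median log2 difference was -0.11. PLSCR3, a phospholipid scramblase gene, had 171 and 429 counts in SW1990 and was 2.54-fold higher after radiation (log2 1.35, 1.09 to 1.61). In PANC-1 its log2 change was 0.19 (-0.01 to 0.39).

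Annexin A1 was named lipocortin for its restraint of phospholipase A2, which releases arachidonate for prostaglandin synthesis. Of 5 genes of arachidonate release tested, 4 were higher and 0 lower in SW1990, where 21.6% of all genes were higher and 22.8% lower. Their median log2 difference was 4.49, on few counts. PTGS2, which encodes cyclooxygenase 2, had 153 and 255 counts in SW1990 and 14 and 2 in PANC-1 (edgeR adjusted p = 0.00753), at an FPKM of at most 2.61. PLA2G4A, the cytosolic phospholipase A2 gene, had 118 and 94 counts in SW1990 and 6 and 4 in PANC-1 (log2 4.49, edgeR adjusted p = 0.002). PLA2G6 and PTGS1 were the others that passed. PLA2G4B, named for its values, was past the 2-fold limit in opposite directions, at log2 -1.43 in SW1990 and 1.53 in PANC-1, on between 14 and 109 counts a library. By FPKM its change in SW1990 was -0.82, within the limit. The formyl peptide receptors of annexin A1 were at or near 0. FPR1 had 6 counts in each PANC-1 library and 0 in SW1990, FPR2 had 2 counts in unirradiated PANC-1 and 0 elsewhere, and FPR3 had none.

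Membrane repair brings annexins to a wound together with ferlins, calpains and caveolar proteins. Of 18 such genes tested, 2 were higher in SW1990 and 8 lower, where 21.6% of all genes were higher and 22.8% lower, and their median log2 difference was -0.27. CAV1, the caveolin of caveolae, had 273 and 322 counts in SW1990 and 5731 and 4427 in PANC-1 (log2 -3.98, edgeR adjusted p = 0.000368). EHD2, an ATPase of the caveolar neck, had 129 and 322 counts in SW1990 and 5014 and 3975 in PANC-1 (log2 -4.32, edgeR adjusted p = 0.00156). MYOF, a ferlin, and CAPN2, a calpain, were also higher in PANC-1, with log2 differences of -1.37 (edgeR adjusted p = 0.00905) and -1.94 (edgeR adjusted p = 0.00135). CAPN1 and SYT7 were the members higher in SW1990. After radiation EHD2 was 2.53-fold higher in SW1990 (log2 1.34, 1.04 to 1.65) and at log2 -0.20 in PANC-1 (-0.27 to -0.14). PDCD6, the calcium sensor that ANXA11 binds, was at an FPKM of 49.9, 56.6, 44.2 and 54.6 in the 4 libraries and did not pass between the lines (log2 -0.02, edgeR adjusted p = 0.928).

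AHNAK, a very large protein that annexin A2 and S100A10 recruit to the membrane, was the only gene of the repair list past the limit in PANC-1. It had 147453 counts without and 6438 after radiation, a log2 change of -4.39. Its FPKM was 278 and 174, a log2 change of only -0.68. The unscaled CPM behind 1 FPKM unit was 22.1, 22.2 and 22.8 in the other libraries and 1.85 in irradiated PANC-1 cells, so the size of the change depended on the unit. In SW1990 both units gave a small change, at log2 0.27 and 0.20.

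The expressed genes outside the family whose pattern was most like that of ANXA3 were NIPAL1, AC136475.3 and ESRP1. Of the 10 members, ANXA3 had the largest line difference and, in PANC-1 but not in SW1990, the largest radiation change. Likeness was the Euclidean distance over the 4 libraries of log2 CPM centred on each gene's mean, with 0.1 CPM added, searched among 11413 genes that reached an FPKM of 5 in a library. The distances were 0.327, 0.447 and 0.476, and since these genes had few or 0 counts in PANC-1 these distances depend on the added value. NIPAL1 had 326, 271, 6 and 0 counts, and ESRP1, an epithelial splicing regulator, had 544, 545, 9 and 3. Among the family outside the 10 members, ANXA9 also had most of its counts in SW1990, at 511 and 514 against 24 and 59 in PANC-1 (log2 3.81, edgeR adjusted p = 0.00224). ANXA9 was 2.69-fold higher after radiation in PANC-1 (log2 1.43, 0.72 to 2.18), where its FPKM was 0.455 and 1.29. ANXA8L1 was higher in PANC-1 (log2 -2.10, edgeR adjusted p = 0.0119), with the doubt about shared reads given above.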

How the data were processed

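The authors deposited 1 table that holds, for every gene in every library, a number of reads (counts) and its FPKM. The sources name Trimmomatic 0.36, HISAT2 2.0 and StringTie 1.3.3b on GRCh38. The tool that made the deposited counts is not given in the sources used here, nor whether counting used strand. A kit for mRNA is named beside removal of ribosomal RNA. Of 59263 rows, 1089 carry no gene name and were used neither for library sizes nor in any fit. Their share of a library's counts was at most 0.64% and at least 0.45%.

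Counts were scaled by TMM and fitted with edgeR 4.0.16 (glmQLFit, filterByExpr, R 4.3.3). DESeq2 1.42.0 and limma 3.58.1 on log2(FPKM + 0.1) served as alternatives, besides other scalings, filters, the fold limit of 1.5 and FPKM in place of counts. Fold changes within a line are ratios of scaled counts, and none is given where a library had 3 counts or fewer. The fit was tested on simulated data with less spread between libraries than these data. That run does not measure the power of the fit here. Sequences and transcripts come from GENCODE release 29, where 96.8% of the 57836 gene rows found had the same coordinates.

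The members, the 7 gene lists (63 genes) and the tests were chosen with earlier results of these data known. Genes named are all members, list genes past the 2-fold limit with an FPKM of at least 5, list genes that passed between the lines, the most abundant genes of a list, and the 3 genes most like ANXA3. The text gives a part of them, and some results are not reported here. PLAT, PLA2G4B, PDCD6, list genes at or near 0 counts and the change of ANXA9 were named after their values were seen.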

Additional observations from a re-analysis of the deposited data

Results flagged for a closer look

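Of the 8 annexins that reached an FPKM of 1 in both lines, 3 had radiation changes in opposite directions in SW1990 and PANC-1. Their count intervals left out 0 in both lines. Of 13228 genes that reached an FPKM of 1 in both lines, 13.6% did the same. Such intervals narrow as counts rise, and ANXA2 met the rule at a log2 change of only 0.05 in SW1990. The change in SW1990 minus that in PANC-1 was 1.24 on the log2 scale for ANXA1, 1.91 for ANXA3 and 0.27 for ANXA2. These differences were not tested, and each rests on 1 library per line and treatment. For ANXA2 the log2 change in SW1990 was -0.41 by FPKM and -0.01 with scaling by total counts, against 0.05, and for ANXA3 the PANC-1 libraries held 75 and 20 counts.

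A locus that the table gives without a gene name lies inside ANXA4 on the same strand (chr2:69742059-69804589). Its counts were 0 without and 27 after radiation in SW1990, and 17 and 33 in PANC-1. Its FPKM was 3.87 in irradiated SW1990, where the FPKM of ANXA4 was lower and its counts were higher than in the unirradiated cells. In PANC-1 the FPKM of the locus was 1.79 without and 4.17 after radiation, and that of ANXA4 was 41.9 and 49.5. The part of the locus in the ANXA4 values was not tested.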

How the results depend on the processing

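The count of members past the fold limit in SW1990 was 0, and 1 at a limit of 1.5, where that member was ANXA1. In PANC-1 it was 1 under each alternative. Between the lines, 8 members passed, and 7 did without a filter on low counts and with limma on FPKM. The fit of radiation over both lines paired the libraries of a line by its covariate, and 0 members passed with or without it. ANXA2 took between 47.6% and 54.5% of annexin counts, a lower share than by FPKM. Summing ANXA2 with its pseudogenes left its radiation changes at 0.05 and -0.22 on the log2 scale. ANXA8 summed with ANXA8L1 gave 0.09 in SW1990 and 0.48 in PANC-1, where ANXA8 alone gave 0.97 and 0.58. Depth limits ANXA8 in all libraries and ANXA3 in PANC-1. DESeq2 passed 9621 genes between the lines and 312 for radiation.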
